A study of Monascus purpureus with 6 samples.

Results

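The enzymes of sterol and isoprenoid biosynthesis were described in mycelia of *M. purpureus* MP2022, a wild-type filamentous fungus used for red yeast rice, which were cultured for 1 d with 4.0 g/L taurine (3 libraries) or without taurine, the control (3 libraries). The labels state for both groups the same fermentation medium and shaking, and they do not say whether the libraries of a group came from separate cultures, so the p-values measure only the spread between these libraries. RNA was sequenced by de novo RNA-Seq, in which the reads are assembled into transcript models, here called unigenes, without a reference genome. The level of each unigene was given as FPKM, the number of fragments scaled to the length of the unigene and to the depth of the library. Besides fermentation products, the study asked whether taurine acts on gene transcription and on the permeability of the cell membrane.

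The members were unigenes whose KEGG annotation names squalene, lanosterol, sterol, hydroxymethylglutaryl-CoA (HMG-CoA), mevalonate, farnesyl or geranylgeranyl, without a cytochrome P450 or short chain dehydrogenase domain in Pfam, and with a mean of at least 0.1 FPKM over the 6 libraries. This gave 122 unigenes of 24261 in the table, assembled as 88 genes. Of 137 unigenes with such a KEGG name, 8 were left out by their domain, 6 had no FPKM listed and 1 lay below the minimum, with a mean of 0.07 FPKM, while the lowest member had a mean of 0.102 FPKM. The best protein match was in *Monascus* for 103 members, in *Aspergillus* for 14 and in *Penicillium* for 5.

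Sterols and isoprenoids come from 1 trunk. The mevalonate pathway condenses acetyl-CoA to HMG-CoA, reduces it to mevalonate and turns that into the isoprene unit isopentenyl diphosphate, which prenyl diphosphate synthases join into longer chains. These chains either anchor proteins to membranes or are joined head to head to squalene, which is closed to lanosterol and rebuilt to ergosterol, the main sterol of fungal membranes and a determinant of their fluidity and permeability. The enzyme roles below are background from *Saccharomyces cerevisiae* unless another organism is named, and the statins, among them a compound known from *Monascus*, block HMG-CoA reductase.

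The KEGG name was not always borne out by the domain. Pfam named a domain of the stated enzyme or its family for 86 members and not for 36, of which 8 had no Pfam text. Some of these domains are shared, as the fatty acid hydroxylase domain by methylsterol monooxygenase and C-5 sterol desaturase. A match therefore does not settle which enzyme of a family a unigene encodes. Of 14 unigenes named HMG-CoA lyase, only 3 had the HMGL-like domain. The 3 members named sterol 14alpha-demethylase carried a Fringe-like domain. The cytochrome P450 unigenes that bear the same name were left out by the rule and are described with the other genes of the pathway. By the first KEGG entry, 43 members belonged to the branch between squalene and ergosterol, 21 to sterol storage and transport, 17 to the mevalonate pathway, 17 to protein prenylation, 14 to HMG-CoA lyase and 3 to prenyl diphosphate synthases. The remaining 7 were led by another KEGG entry.

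The library totals were alike, with 797244 to 865009 FPKM in sum and an estimated 18250000 to 19000000 fragments each. Over 5904 tested unigenes with a mean of at least 10 FPKM, control 2 was the lowest library for 50.5% and the highest for 25.1%, and control 1 was the lowest for 22.3% and the highest for 25.7%. The other 4 libraries were each the lowest for 3.79% to 12.7%. For some members the value without control 1 or control 2 is also given. In bulk samples, fewer cells of a kind and less RNA per cell cannot be told apart.

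None of the 122 members passed the test for a difference with taurine. At an adjusted p of 0.05 or below (limma on log2(FPKM + 1), two-sided, Benjamini-Hochberg adjustment over 20381 tested unigenes), 0 members were called, against 8 of all tested unigenes (0.0393%). At an unadjusted p under 0.05 there were again 0 members, against 543 of all tested unigenes (2.66%), and the lowest unadjusted p of a member was 0.0518. The log2 fold change, taurine minus control, was above 0 for 65 members and below 0 for 57, with a median of 0.02, against a median of 0.02 over all tested unigenes. The 3 taurine libraries all lay above the 3 control libraries for 5 members, or 4.1% (3.78% of all tested unigenes), and all below for 3 members, or 2.46% (2.62%). Both shares lay near those of all tested unigenes. Every direction given here rests on the column names of the deposited table, which were matched to the sample titles. The fold change signs in the study's supplement, read by the convention stated there, run opposite to these names. Were the names exchanged, every sign and every count by direction would turn round. The wide spread described below for the control, and what is said of control 1 and control 2, would then belong to the taurine group. The tests and the widths of the intervals would stay.

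These missing calls do not show that the levels were alike, so the interval of each difference was read. The 95% interval of the log2 fold change lay between -1 and 1, which leaves out a change by a factor of 2 on this scale, for 83 of 122 members (68.0%, against 58.5% of all tested unigenes). Among the 47 members with a mean of at least 10 FPKM, this held for 43 (91.5%, against 92.2% of 5904 tested unigenes of that level). The pseudocount of 1 draws fold changes of low unigenes towards 0, so an interval of a member under 1 FPKM, of which there were 25, says little about its relative change. Summed over all members, the level was 4362 ± 77.0 FPKM in taurine libraries and 4416 ± 413.5 FPKM in control libraries (SD, n = 3 each), or between 0.46% and 0.6% of the FPKM of a library. The sums overlapped, with control 1 the lowest of the 6 libraries and control 2 the highest.

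**Figure D1:**
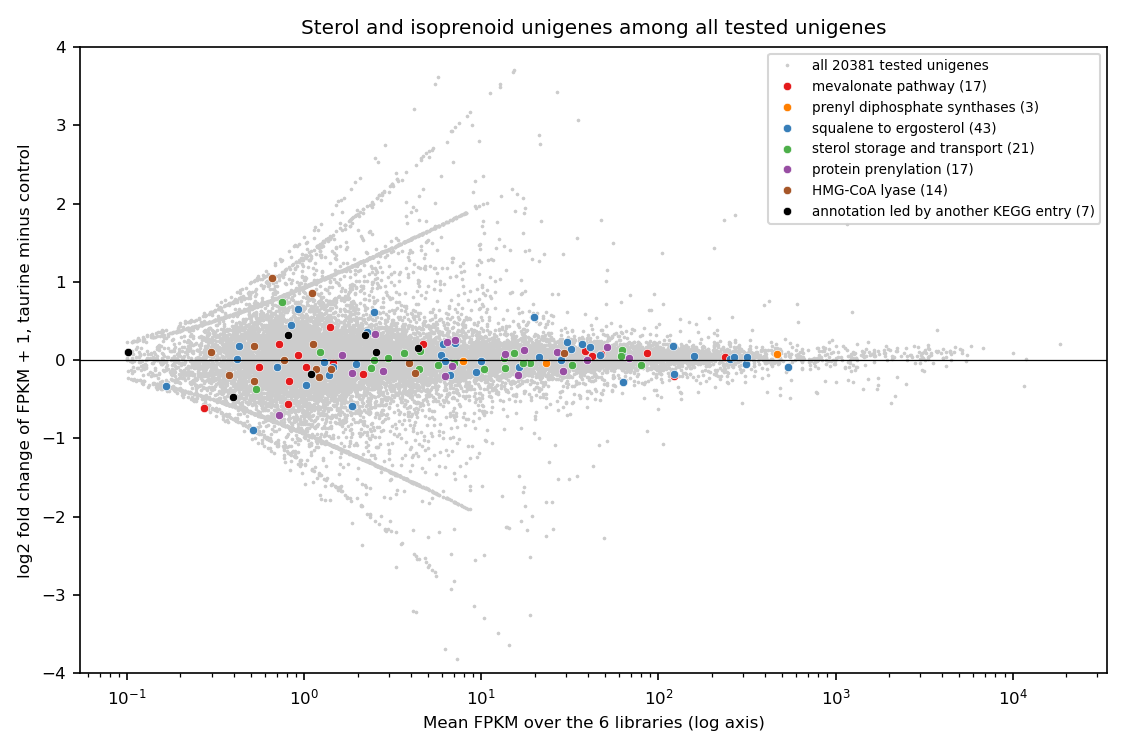
The log2 fold change of FPKM + 1 (taurine minus control, vertical axis) is plotted against the mean FPKM over the 6 libraries (horizontal log axis) for all 20381 tested unigenes (grey) and for the 122 members, coloured by role. The members lie within the grey cloud, with the widest spread at low levels, and 1 grey unigene falls outside the plotted log2 range of 4.

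In the mevalonate pathway, the main unigene of each step differed little between the groups. HMG-CoA synthase (DN3247_c0_g1_i1-S3A; identifiers are given without their TRINITY prefix), which makes HMG-CoA, had 240.04, 232.66 and 248.16 FPKM in taurine libraries 1, 2 and 3, against 239.65, 219.39 and 240.29 FPKM in control libraries 1, 2 and 3. The groups overlapped, and the log2 fold change was 0.04 (95% interval -0.14 to 0.23). HMG-CoA reductase (DN2639_c0_g1_i1-C1A), the regulated and statin-sensitive step that makes mevalonate, had 42.6, 41.52 and 44.89 FPKM in taurine libraries, against 41.23, 39.88 and 43.3 FPKM in control libraries. All 6 values of this step lay close together, and the log2 fold change of 0.05 (interval -0.13 to 0.23) was among the most narrowly bounded of the pathway.

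Mevalonate kinase (DN10043_c0_g1_i1-S3A), which puts the first phosphate on mevalonate, had 48.89, 46.61 and 50.33 FPKM in taurine libraries, against 45.5, 45.65 and 46.42 FPKM in control libraries. The groups did not overlap, but the log2 fold change was only 0.08 (interval -0.08 to 0.25, unadjusted p = 0.27 by limma). Phosphomevalonate kinase (DN2358_c0_g1_i1-C3A), which adds the second phosphate, averaged 39.9 ± 1.71 FPKM in taurine libraries and 37.0 ± 4.99 FPKM in control libraries (SD, n = 3 each). Diphosphomevalonate decarboxylase (DN11020_c0_g1_i1-C3A), which closes the pathway with isopentenyl diphosphate, averaged 87.9 ± 1.41 FPKM in taurine libraries and 83.5 ± 13.3 FPKM in control libraries. In both of these steps control 2 was the lowest library, with 31.92 FPKM for the kinase and 68.22 FPKM for the decarboxylase. Without control 2 the log2 fold change of the decarboxylase was -0.05 in place of 0.09, so its sign rested on that library.

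Other unigenes with these names were mostly low. A further HMG-CoA synthase, DN2942_c0_g1_i1-C2A, reached 121.32, 105.04 and 113.35 FPKM in taurine libraries, against 124.73, 163.85 and 108.13 FPKM in control libraries. Here control 2 was the highest library, and without it the log2 fold change was -0.04 in place of -0.20. The other 6 unigenes named HMG-CoA synthase summed to 5.83 ± 0.288 FPKM in taurine libraries and 6.08 ± 1.62 FPKM in control libraries. Among them, DN1224_c0_g1_i4-S3A had 1.64, 1.49 and 2.06 FPKM with taurine and 1.37, 1.15 and 0.63 FPKM in the control, without overlap (log2 fold change 0.43, interval -0.17 to 1.02). The 5 other unigenes named mevalonate kinase lacked the domain of that enzyme. They include DN4575_c0_g2_i1-C2A, which has the lowest unadjusted p of all members and was listed at 0 in all 3 taurine libraries and at 0.4, 0.88 and 0.34 FPKM in control libraries. Its log2 fold change was -0.61 (interval -1.22 to 0.01, adjusted p = 0.999 by limma), on a unigene of 510 bases.

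Prenyl diphosphate synthases followed. Farnesyl diphosphate synthase (DN9714_c0_g1_i1-C2A), which makes the chain shared by sterols, prenylated proteins and other isoprenoids, was the second highest member with 491.94, 496.21 and 453.16 FPKM in taurine libraries, against 459.79, 428.73 and 475.35 FPKM in control libraries. Its groups overlapped, with a log2 fold change of 0.08 (interval -0.13 to 0.29). The level was above that of 98.7% of all tested unigenes, while HMG-CoA reductase upstream of it was above 87.9%. The 2 isoforms of geranylgeranyl diphosphate synthase, which lengthens the farnesyl chain, summed to 30.5 ± 0.598 FPKM with taurine and 31.6 ± 5.99 FPKM in the control.

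In the branch to ergosterol, the groups overlapped for most enzymes. Squalene synthase (DN1257_c0_g1_i1-S1A), which commits the farnesyl chain to sterols, had 278.13, 262.97 and 265.91 FPKM in taurine libraries, against 272.62, 235.99 and 277.15 FPKM in control libraries. The groups overlapped, with a log2 fold change of 0.04 (interval -0.17 to 0.26). Lanosterol synthase (DN1753_c0_g1_i1-S1A), which closes the sterol rings, had 127.83, 131.15 and 127.77 FPKM in taurine libraries, against 121.92, 93.53 and 127.45 FPKM in control libraries. The groups did not overlap, by a narrow margin, and the log2 fold change of 0.18 (interval -0.12 to 0.49, unadjusted p = 0.189 by limma) was 0.05 without control 2.

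C-14 sterol reductase (DN8695_c0_g1_i1-S1A) averaged 64.1 ± 4.21 FPKM with taurine and 60.7 ± 3.32 FPKM in the control. C-3 sterol dehydrogenase (DN3288_c0_g1_i2-S1A), which acts in the removal of the C-4 methyl groups, averaged 28.5 ± 3.08 FPKM with taurine and 27.9 ± 3.83 FPKM in the control. C-8 sterol isomerase (DN7879_c0_g1_i1-C2A), which moves a double bond of the ring and whose best protein match is described as a squalene epoxidase, averaged 161.3 ± 12.8 FPKM with taurine and 155.8 ± 24.2 FPKM in the control. The groups overlapped in each of these 3 steps. The last step, C-24(28) sterol reductase, was the most divided, with 15 unigenes that summed to 126.7 ± 6.08 FPKM with taurine and 124.0 ± 5.48 FPKM in the control. The sum includes isoforms that lack the domain of this enzyme, with means of 32.0 and 5.94 FPKM over the 6 libraries. The highest unigene of the step, DN546_c0_g1_i2-S3A, had 46.08, 46.12 and 50.38 FPKM with taurine, against 53.26, 35.62 and 49.49 FPKM in the control. The control libraries lay on both sides of the taurine libraries.

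Only a single isoform of this step was named in the study's list of significant genes. This isoform, DN2131_c0_g1_i1-C2A, was listed at 0, 0 and 0.01 FPKM in taurine libraries, against 0.99, 0 and 0 FPKM in control libraries, so that control 1 alone held nearly all of it. Its log2 fold change was -0.33 (interval -1.16 to 0.51, adjusted p = 0.999 by limma). The 3 isoforms of the gene together gave 17.36, 15.86 and 15.97 FPKM with taurine, against 14.09, 21.01 and 13.03 FPKM in the control, and these sums overlapped. The authors' counting divided fragments among isoforms that share sequence, which makes the value of a single isoform uncertain.

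**Figure D2:**
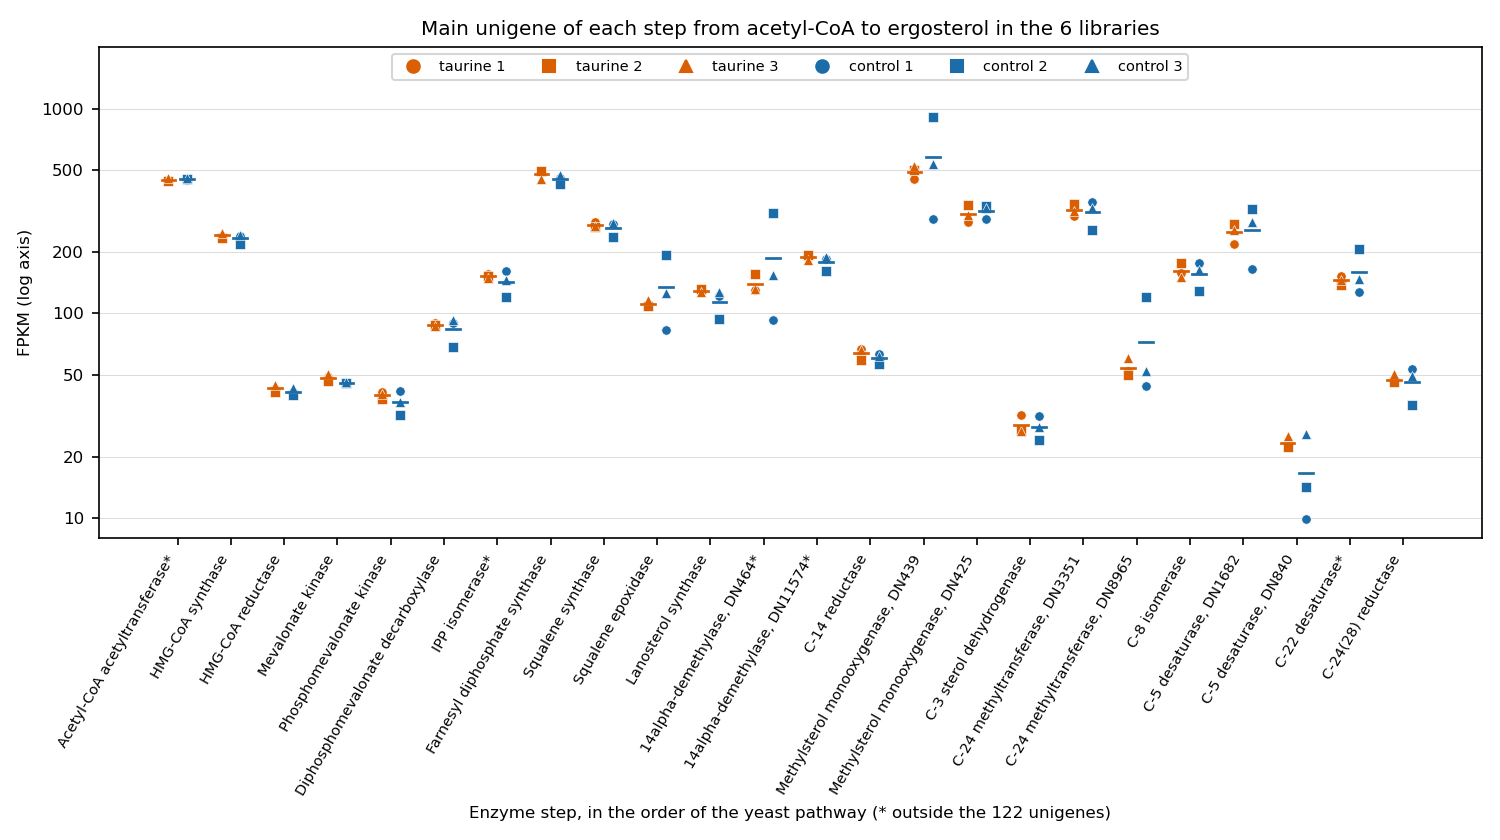
FPKM (log axis) of the main unigenes of each step from acetyl-CoA to ergosterol is shown in the order of the yeast pathway, with the 3 taurine libraries (orange, left) beside the 3 control libraries (blue, right) and a bar at each mean. Circles, squares and triangles mark replicates 1, 2 and 3, and a star marks steps outside the 122 unigenes. Control 2 stands highest and control 1 lowest for squalene epoxidase, methylsterol monooxygenase DN439 and the C-5 desaturase DN1682, where the taurine libraries lie between them.

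For several enzymes of the branch, the control libraries were spread far more widely than the taurine libraries. Squalene epoxidase (DN3276_c0_g1_i1-C2A), which brings the first oxygen into the sterol and is the target of terbinafine, had 109.63, 109.29 and 116.07 FPKM in taurine libraries, against 83.36, 192.94 and 125.33 FPKM in control libraries. Control 1 was the lowest and control 2 the highest, 2.31-fold apart, while the highest taurine library was 1.06-fold above the lowest. The log2 fold change was -0.18 (interval -0.86 to 0.51), 0.13 without control 2 and -0.47 without control 1. Methylsterol monooxygenase (DN439_c0_g1_i2-S2A), which uses oxygen on the C-4 methyl groups and was the highest of all members, had 450.85, 498.91 and 523.91 FPKM in taurine libraries, against 288.97, 915.28 and 538.35 FPKM in control libraries. The order of the control libraries was the same, and the highest was 3.17-fold above the lowest. The log2 fold change was -0.09 (interval -1.04 to 0.86), 0.31 without control 2 and -0.52 without control 1, so no direction could be given.

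C-5 sterol desaturase (DN1682_c0_g1_i1-C1A), which adds a double bond of ergosterol with oxygen, had 219.1, 273.59 and 256.51 FPKM in taurine libraries, against 164.48, 322.55 and 279.09 FPKM in control libraries. Control 1 and control 2 were again the extremes, and the log2 fold change was 0.02 (interval -0.60 to 0.63), -0.27 without control 1 and 0.21 without control 2. The lower C-5 sterol desaturase, DN840_c1_g1_i2-S1A, had 22.19, 22.24 and 25.07 FPKM with taurine, against 9.96, 14.14 and 25.79 FPKM in the control. Here 2 control libraries lay below all taurine libraries and control 3 above them. Its log2 fold change of 0.55 (interval -0.20 to 1.31, unadjusted p = 0.124 by limma) was the largest among members with a mean of at least 10 FPKM, but it was 0.26 without control 1 and 0.49 without control 2.

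The wide control spread was not particular to the members. Among the 47 members with a mean of at least 10 FPKM, the ratio of the highest to the lowest library was larger in the control than with taurine for 36 (76.6%), against 78.9% of all 5904 tested unigenes of that level. The median ratio was 1.13 in taurine libraries and 1.3 in control libraries, against 1.12 and 1.29 over those 5904. A control ratio of at least 1.5 was seen for 12 of the 47 members (25.5%, against 25.7%), and a taurine ratio of that size for 0 (0%, against 4.13%). Control 2 was the highest and control 1 the lowest library for 10 members (21.3%, against 14.6%). Control 2 was at least 1.5 times the mean of the other 5 libraries for 5 members (10.6%, against 9.11%): squalene epoxidase, methylsterol monooxygenase DN439, a sterol C-24 methyltransferase, prenylcysteine lyase and sterol glucosyltransferase. These groupings were made after the values were seen and were not tested.

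Unigenes that share an enzyme name differed in this respect. The other methylsterol monooxygenase, DN425_c0_g1_i1-S2A, had 279.03, 338.94 and 302.94 FPKM in taurine libraries, against 288.51, 334.88 and 328.41 FPKM in control libraries. It overlapped fully between the groups, with a log2 fold change of -0.05 (interval -0.31 to 0.21). The level of DN439 over that of DN425 was 1.62, 1.47 and 1.73 in taurine libraries, against 1.0, 2.73 and 1.64 in control libraries. Sterol C-24 methyltransferase, which adds the methyl group that sets ergosterol apart from cholesterol, showed the same contrast. Its main unigene, DN3351_c0_g1_i1-C2A, had 298.44, 340.47 and 315.83 FPKM with taurine, against 350.73, 256.68 and 327 FPKM in the control, with control 2 the lowest library. The lower DN8965_c0_g1_i1-C2A had 52.09, 49.98 and 60.62 FPKM with taurine, against 44.1, 120.85 and 52.54 FPKM in the control, with control 2 the highest. Control 2 thus stood at opposite ends for the 2 unigenes, whose ratio (DN8965 over DN3351) was 0.175, 0.147 and 0.192 with taurine and 0.126, 0.471 and 0.161 in the control. The log2 fold change was 0.04 (interval -0.28 to 0.37) for DN3351 and -0.27 (interval -1.15 to 0.61) for DN8965, and both signs turned without control 2 (-0.09 and 0.16).

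**Figure D3:**
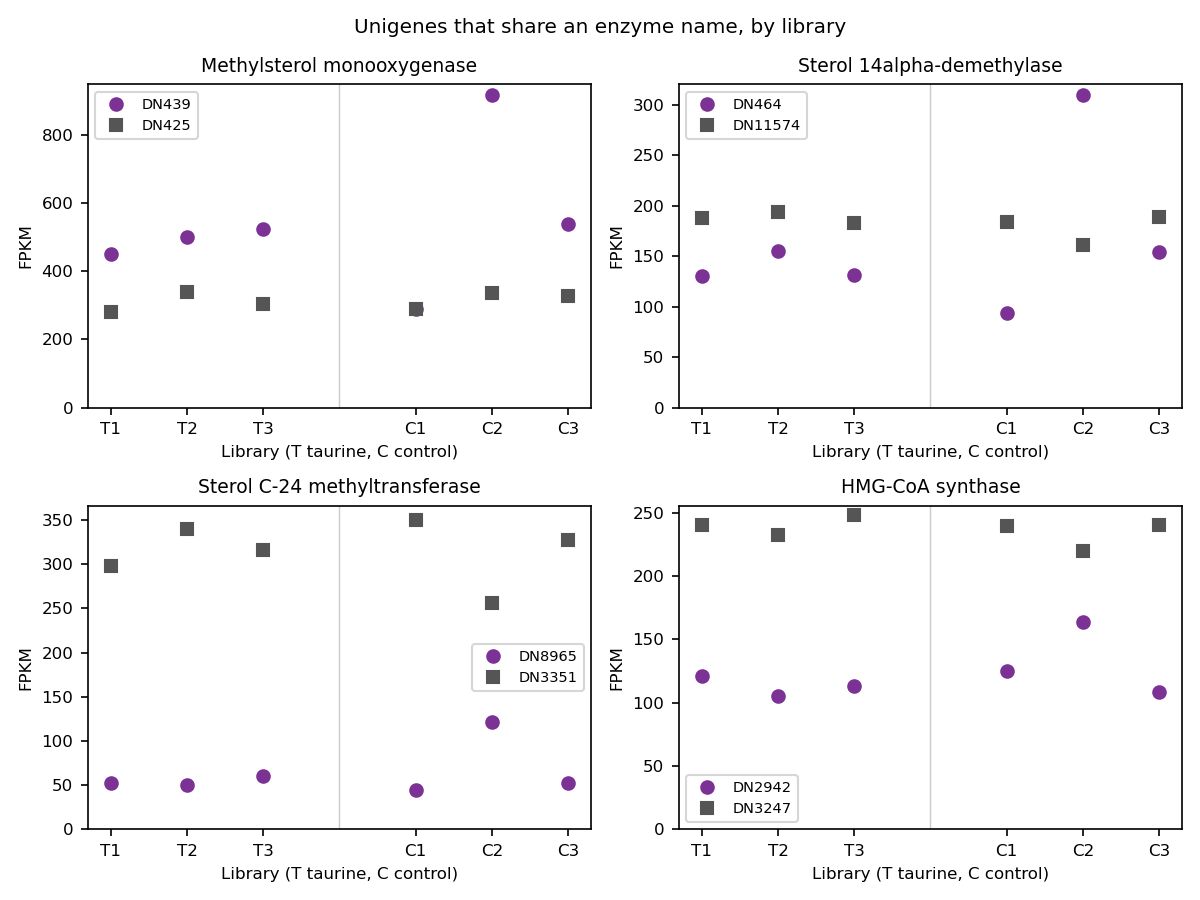
FPKM in each library (T1 to T3 with taurine, C1 to C3 the control; linear axes from 0) is drawn for pairs of unigenes that share an enzyme name. In control 2 the purple unigene stands above its level in the other libraries in each panel, to 915.28 FPKM for methylsterol monooxygenase DN439, while the grey unigene does not.

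Sterol storage and transport showed no difference beyond the spread. The 12 oxysterol-binding proteins, which carry sterols and phosphoinositides between membranes, summed to 284.1 ± 9.70 FPKM with taurine and 281.0 ± 7.92 FPKM in the control. Their highest isoform reached 79.8 FPKM on average, and the isoform DN172_c0_g1_i4-C3A was among the 3 members with the largest positive fold change, with 1.67, 1.1 and 0.72 FPKM with taurine and 0, 1.03 and 0 FPKM in the control. The groups of this isoform overlapped, and the 5 isoforms of its gene together gave 72.9 ± 0.890 FPKM with taurine and 70.5 ± 6.75 FPKM in the control.

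Sterol O-acyltransferase (DN516_c0_g1_i1-C3A), which esterifies sterols for storage in lipid droplets, had 32.54, 25.17 and 36.59 FPKM in taurine libraries, against 23.64, 41.65 and 35.06 FPKM in control libraries. Sterol glucosyltransferase (DN4310_c0_g1_i1-S3A), which attaches glucose to sterols, had 13.55, 11.32 and 13.25 FPKM in taurine libraries, against 8.91, 21.57 and 12.99 FPKM in control libraries. In both, control 1 was the lowest library and control 2 the highest, and the log2 fold changes were -0.07 (interval -0.63 to 0.50) and -0.10 (interval -0.81 to 0.61). Without control 2 they were 0.11 and 0.22. The 6 unigenes named sterol carrier protein 2, a lipid transfer domain that is often joined to a peroxisomal thiolase, summed to 27.61, 28.54 and 24.71 FPKM with taurine, against 26.72, 26.79 and 27.15 FPKM in the control, and these sums overlapped.

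Protein prenylation, the attachment of farnesyl or geranylgeranyl chains to proteins such as Ras and Rab GTPases, gave no called member. The alpha subunit shared by farnesyltransferase and geranylgeranyl transferase type 1 had 39.4 ± 2.06 FPKM with taurine and 39.4 ± 1.98 FPKM in the control. The beta subunit of farnesyltransferase (DN2238_c0_g1_i2-S1A) had 19.51, 16.99 and 17.87 FPKM with taurine, against 16.49, 16.2 and 16.72 FPKM in the control. Its groups did not overlap, with a log2 fold change of 0.13 (interval -0.09 to 0.34, unadjusted p = 0.197 by limma). The unigene DN2238_c0_g1_i1-S3A shares this number but has another suffix, and it was counted as a separate gene. It also did not overlap between the groups, at 27.9 ± 0.352 FPKM with taurine and 25.8 ± 0.877 FPKM in the control. It is named after the Rab geranylgeranyl transferase alpha subunit but carries a Rab-GTPase-TBC domain. Rab escort protein, which presents Rab proteins for prenylation, summed to 83.8 ± 3.30 FPKM over 4 unigenes with taurine and 80.9 ± 12.3 FPKM in the control. The 4 isoforms of the Rab geranylgeranyl transferase beta subunit summed to 90.0 ± 3.16 FPKM with taurine and 88.2 ± 14.1 FPKM in the control. In both of these sums control 2 was the lowest library. Prenylcysteine lyase (DN3341_c0_g1_i1-C2A), known from mammals as an oxygen-using enzyme that frees prenyl groups from the cysteine of degraded proteins, had 15.55, 13.35 and 14.42 FPKM with taurine, against 12.09, 28.39 and 13.29 FPKM in the control. Control 2 alone was high, and the log2 fold change was -0.20 (interval -0.94 to 0.55), or 0.17 without control 2.

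HMG-CoA lyase, which is known from animals to split HMG-CoA in leucine breakdown and so works away from sterol synthesis, was led by DN1119_c0_g1_i1-S3A, with 29.14, 34.17 and 27.87 FPKM in taurine libraries, against 27.37, 28.36 and 29.08 FPKM in control libraries. The groups overlapped, with a log2 fold change of 0.10 (interval -0.14 to 0.33). The domain-bearing DN1223_c0_g1_i1-C3A averaged 3.95 ± 0.410 FPKM with taurine and 4.52 ± 0.280 FPKM in the control, and all its taurine libraries lay below the control libraries (log2 fold change -0.16, interval -0.52 to 0.20). The 11 unigenes of this name without the domain had means of at most 3.90 FPKM. They include the 2 members with the largest positive fold changes. DN5540_c0_g2_i1-S1A, a unigene of 286 bases, had 2.1, 1.83 and 0 FPKM with taurine and was listed at 0 in every control library (log2 fold change 1.04, interval -0.09 to 2.18). DN1609_c0_g1_i5-C1A had 1.48, 1.39 and 1.93 FPKM with taurine, against 0, 0 and 1.88 FPKM in the control (log2 fold change 0.86, interval -0.25 to 1.98). In both the groups overlapped, at 0 FPKM in the first and near 1.9 FPKM in the other.

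The largest negative fold changes also came from low unigenes. DN11239_c0_g1_i1-S1A, a unigene of 314 bases named sterol C-24 methyltransferase but without its domain, was listed at 0 in every taurine library and at 0, 1.66 and 1.43 FPKM in control libraries (log2 fold change -0.90, interval -1.91 to 0.12). The Rab escort protein isoform DN482_c0_g1_i1-C1A had 0, 0 and 1.04 FPKM with taurine, against 1.05, 1.63 and 0.61 FPKM in the control (log2 fold change -0.70, interval -1.63 to 0.23). The groups overlapped for both unigenes. In all, 24 members were listed at 0 in at least 1 library. Among members under 10 FPKM, a C-3 sterol dehydrogenase isoform, DN844_c0_g1_i1-S1A, had 3.75, 3.41 and 2.38 FPKM with taurine, against 1.58, 1.05 and 2.77 FPKM in the control (log2 fold change 0.61, interval -0.10 to 1.31). Its groups overlapped through control 3. Of the sterol C-24 methyltransferases, DN10675_c0_g1_i1-C2A lay lower with taurine in all libraries, at 15.8 ± 0.671 FPKM against 16.9 ± 0.924 FPKM in the control, by a log2 fold change of -0.09 (interval -0.31 to 0.13). The groups nearly touched, at 16.3 FPKM in taurine library 3 and 16.31 FPKM in control 2. Of the unigenes named sterol 14alpha-demethylase with a Fringe-like domain, the highest, DN617_c0_g1_i2-S1A, averaged 43.7 ± 1.84 FPKM with taurine and 39.0 ± 4.32 FPKM in the control, with a log2 fold change of 0.17 (interval -0.08 to 0.41). Control 2 was its lowest library, and without it the log2 fold change was 0.07.

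**Figure D4:**
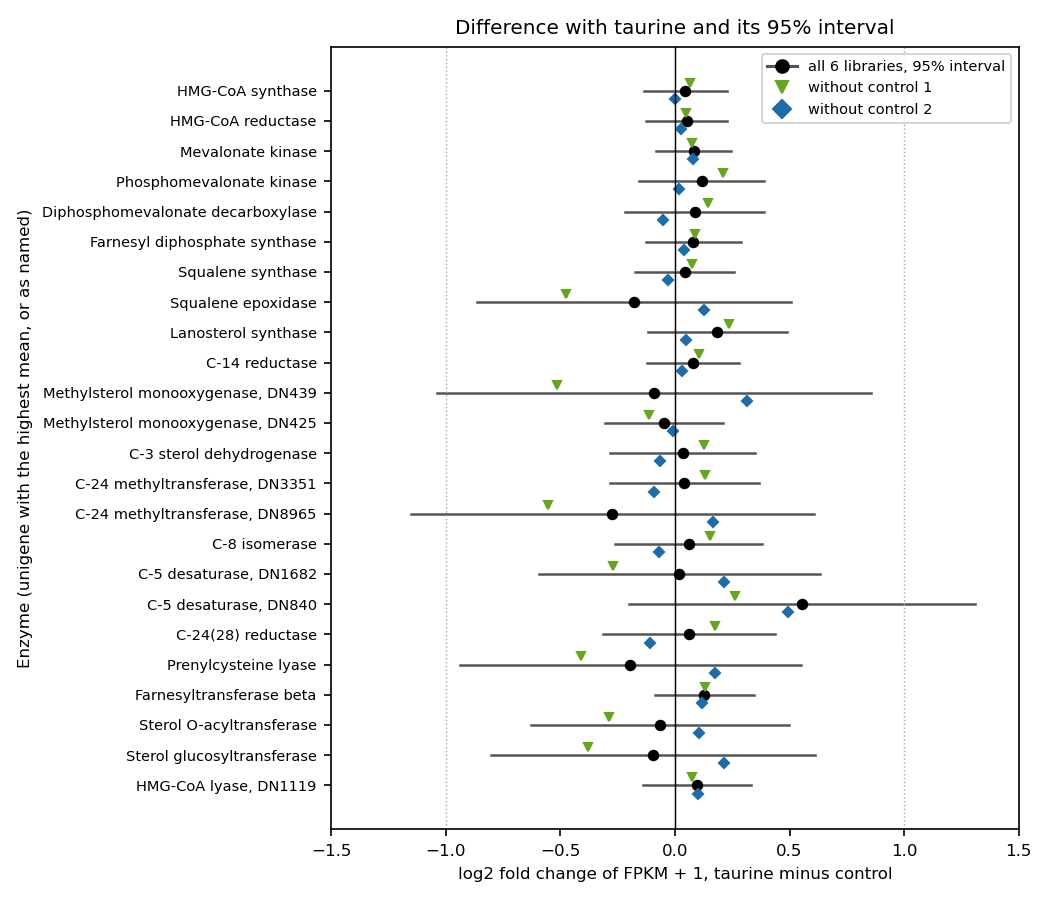
The log2 fold change of FPKM + 1 (taurine minus control, horizontal axis) is drawn with its 95% interval for 24 members with the enzyme domain, with the value without control 1 (green) and without control 2 (blue); dotted lines mark -1 and 1. Every interval crosses 0. The green and blue points lie on opposite sides of 0 for many of these members. Among them are squalene epoxidase, methylsterol monooxygenase DN439, C-24 methyltransferases DN8965 and DN3351, C-5 desaturase DN1682, C-24(28) reductase and sterol glucosyltransferase.

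A list of 30 further unigenes outside the rule, taken by KEGG name as other genes of the pathway, gave 0 called by limma. At an unadjusted p under 0.05 there was 1 (background 2.66%), named acetyl-CoA acetyltransferase, a fragment of 305 bases. It was listed at 0 in all taurine libraries and at 2.48, 1.93 and 1.65 FPKM in control libraries, with an adjusted p of 0.399 by limma. The list also holds users of prenyl diphosphates away from sterol synthesis, such as dolichol kinase. Its names were not always borne out by Pfam. Some unigenes named 4-hydroxybenzoate polyprenyltransferase carried a transposase or endonuclease domain, and the unigene named 3-keto steroid reductase a zinc finger. Others were short fragments without Pfam text. By direction, 12 of the 30 were higher with taurine and 18 lower, with a median log2 fold change of -0.04. Acetyl-CoA acetyltransferase (DN3843_c0_g1_i1-C2A), which starts the pathway, had 446.49, 443.89 and 457.69 FPKM in taurine libraries, against 447.16, 452.75 and 457.67 FPKM in control libraries, and was nearly the same in all 6. Isopentenyl diphosphate isomerase (DN7301_c0_g1_i1-S3A) had 156.05, 152.49 and 148.41 FPKM with taurine, against 161.47, 120.27 and 145.95 FPKM in the control. Its groups overlapped, with control 2 the lowest library.

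The cytochrome P450 enzymes of the branch repeated the contrast between copies. Sterol 14alpha-demethylase, the target of azole antifungals, was present as DN464_c0_g3_i2-S2A with 130.26, 155.27 and 131.5 FPKM in taurine libraries, against 93.29, 309.39 and 154.34 FPKM in control libraries, and as DN11574_c0_g1_i1-C1A with 187.82, 193.42 and 182.46 FPKM in taurine libraries, against 183.5, 160.67 and 188.43 FPKM in control libraries. For DN464 control 1 was the lowest library and control 2 the highest, whereas for DN11574 control 2 was the lowest. Their log2 fold changes were -0.25 (interval -1.23 to 0.73) and 0.08 (interval -0.12 to 0.29). For DN464 the value was 0.21 without control 2 and -0.65 without control 1. The level of DN464 over that of DN11574 was 0.694, 0.803 and 0.721 with taurine, against 0.508, 1.93 and 0.819 in the control. C-22 desaturase (DN3760_c0_g1_i1-S3A), another oxygen-using cytochrome P450, had 153.11, 137.42 and 146.22 FPKM with taurine, against 126.93, 205.4 and 146.99 FPKM in the control, again with control 1 lowest and control 2 highest. Its log2 fold change was -0.11 (interval -0.53 to 0.32), 0.09 without control 2 and -0.26 without control 1. What set control 1 and control 2 apart was not tested.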

How the data were processed

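RNA was measured in 3 taurine and 3 control libraries, which were grouped by their titles. The deposited table of the authors' unigenes holds FPKM per library and annotation, and also their own group means, fold changes, p-values and q-values, which were not used. The submitters' processing notes name Bowtie2 2.2.5, RSEM 1.2.8 and DESeq. Deposited FPKM already divides by length and depth and shares fragments among isoforms. All columns of single libraries were used (0 left out).

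FPKM was taken to log2 with a pseudocount of 1. All unigenes with a mean of at least 0.1 FPKM (20381) were tested with limma 3.58.1 in R 4.3.3 (lmFit, eBayes with trend), two-sided, Benjamini-Hochberg adjusted, and the code was tested on simulated data. An exact permutation test of 3 against 3 libraries cannot go below p = 0.1 and was not used. Tables were joined with Python 3.11.15 and pandas 2.3.3. The table holds no counts. The fragments per library were estimated from how low FPKM values of unigenes of 400 to 700 bases are spaced, of which 59.6% to 64.7% came within 0.1 of a whole number (20% would if evenly spread), so the depth is approximate.

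Members and lists were chosen with earlier results of these data known. Named unigenes were those with an unadjusted p under 0.05, the highest of each step of the mevalonate and ergosterol pathways, the 3 largest positive and the 3 largest negative fold changes, the 5 highest levels and any the study names. DN2942, DN8965, DN840, DN844, DN1224, DN1223, DN10675, DN2238, DN3341, DN4310, DN516 and DN1119, and those outside the rule, were named after their values were seen. Alternatives were the pseudocount, the filter on low values, the TPM scale, a replicate block, leaving out each library, sums of isoforms per gene, quality weights of the libraries and quantile normalization.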

Additional observations from a re-analysis of the deposited data

How the results depend on the processing

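No member was called under any of the 14 alternatives. Few of all tested unigenes were called there either, from 0 with the replicate block to 15 with sample quality weights. The lowest adjusted p of a member by limma was 0.126, for DN5540_c0_g2_i1-S1A without taurine replicate 3. The other genes of the pathway also gave 0 calls under each alternative. The members at an unadjusted p under 0.05 were 0 of 122 in the reported test. They were 1 with a pseudocount of 0.1 (2.81% of all tested unigenes), with no filter on low values (2.55%) and with quantile normalization (2.61%). When a library was left out they were 1 to 5 (2.74% to 4.44% of all tested unigenes), and the 5 arose without control 3 (3.48%). With sample quality weights they were 11, where 10.1% of all tested unigenes passed that threshold. The median log2 fold change of members was -0.0259 to 0.0302 and the share of members above 0 was 47.5% to 63.1% when a library was left out. That share was 47.5% without control 1 and 63.1% without control 2, against 53.3% with all libraries.

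No single member named here was called under any alternative, and 34 of 526 values of these members changed sign. With sample quality weights the sign turned for DN11020 (-0.0497), DN1257 (-0.027), DN1682 (-0.103), DN3351 (-0.0488), DN546 (-0.0435), DN7879 (-0.0254), DN2942 (0.0257), DN3341 (0.0894), DN4310 (0.0114) and DN8965 (0.0315). It turned with quantile normalization for DN1682 (-0.0147) and with isoforms summed to genes for DN2131 (0.0576) and DN482 (0.11). When a library was left out, the log2 fold change ranged over -0.051 to 0.17 for DN11020, -0.0315 to 0.0841 for DN1257, -0.27 to 0.21 for DN1682, -0.49 to 0.00479 for DN2131, -0.47 to 0.13 for DN3276, -0.067 to 0.13 for DN3288, -0.41 to 0.17 for DN3341, -0.0915 to 0.13 for DN3351, -0.12 to 0.0174 for DN425, -0.38 to 0.22 for DN4310, -0.52 to 0.31 for DN439, -0.29 to 0.11 for DN516, -0.11 to 0.17 for DN546, -0.0698 to 0.15 for DN7879 and -0.55 to 0.16 for DN8965. The cause was not tested.

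The replicate numbers did not pair the libraries: same-numbered libraries deviated from their group means with correlations of -0.022, -0.034 and -0.009. With the replicate block, 0 members were called, and 0 of all tested unigenes were called either. At an unadjusted p under 0.05 there were 0 members, against 2.43% of all tested unigenes. The median log2 fold change of members was 0.02, 53.3% lay above 0, and the summed level differed by -0.01 on the log2 scale.

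Each group has 3 libraries, and the wide control spread sets the width of the intervals for squalene epoxidase, methylsterol monooxygenase DN439 and the C-5 desaturases. Among members under 1 FPKM, the number of fragments differed with length. A unigene of 510 bases had an estimated 0 to 3.2 fragments per library, and a unigene of 4453 bases had 0 to 142.7.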
